A study of Mus musculus with 10 samples.

Results

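Neurofilaments and the other proteins of the neuronal cytoskeleton were examined in mouse embryonic stem cells (ESCs) through 10 genes: Nefl, Nefm, Nefh, Ina, Nes, Stmn2, Stmn3, Tubb3, Map2 and Gap43. They were taken by symbol from the 51467 genes of the count table. All 10 passed the filter on low values, as did 11683 genes in all. The 10 libraries are wild type (WT, 3 libraries), DGCR8 KO (3 libraries) and DDX6 KO (4 libraries, with clone 1 and clone 2 giving 2 apiece), all of ESCs kept in Knockout DMEM with 15% fetal bovine serum, LIF and the 2i inhibitors PD0325901 and CHIR99021. WT is the V6.5 line. DDX6 KO comprises clones 1 and 2, made from V6.5 by CRISPR, of which the study describes an insertion and a deletion at the guide's site in Ddx6. DGCR8 KO is a single line, which the labels describe as made by CRISPR and the study lists as made earlier, so a difference of that line from WT includes whatever else sets the line apart. The libraries of a group are not stated to be separate cultures, and tests over them then measure only the spread between libraries.

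Neurofilaments are the intermediate filaments of axons. They assemble from a light (Nefl), a medium (Nefm) and a heavy chain (Nefh), joined by alpha-internexin (Ina) early in neuronal development, while nestin (Nes) is the filament protein of neural progenitors. Microtubules, the other long filaments of a neurite, are built from tubulins such as the neuronal beta-tubulin Tubb3, are bound along their length by Map2, and lose subunits to the stathmins Stmn2 and Stmn3. Gap43 is a membrane protein of the growth cone. Outside neurons many genes of neuronal function are silenced by the repressor REST. DGCR8 is needed to cut most microRNAs (miRNAs) from their primary transcripts, and DDX6 is an RNA helicase that acts in decapping and in repression by miRNAs.

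DGCR8 is needed to make, among others, the miRNA family abundant in ESCs that shares the hexamer AAGUGC. Mature sequences from RefSeq (GRCm38.p6) were taken for the names miR-290, miR-291, miR-294, miR-295 and miR-302, and members with other names were not sought. The sequences are shown because matches to the seed AAGUGCU were looked for in the 10 genes. The seed, bases 2 to 8, is in capitals. The first 5 share the seed AAGUGCU, and the last 2 have the seeds AAGUGCC and AAGUGCA.
miR-291a-3p: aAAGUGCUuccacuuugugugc
miR-294-3p: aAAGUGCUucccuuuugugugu
miR-295-3p: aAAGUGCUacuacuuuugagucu
miR-302b-3p: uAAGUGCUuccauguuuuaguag
miR-302d-3p: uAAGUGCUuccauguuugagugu
miR-290a-3p: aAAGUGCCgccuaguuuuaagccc
miR-291b-3p: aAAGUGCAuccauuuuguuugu

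The main 3′ UTRs of the 10 genes were searched, on the sense strand, for AGCACTT or GCACTTA, which overlap in the octamer AGCACTTA. Only Stmn2 held a match, the octamer itself, which begins 593 bases after the stop codon of its 1281-base 3′ UTR and lies at chr3:8560918-8560925 on the plus strand (GRCm38). The window around it (chr3:8560907-8560936) is shown with the octamer in capitals.
Stmn2: ctaccagtcatAGCACTTAtgtctgctcct
Among the 10891 tested genes with a main 3′ UTR, 20.0% held a match, and the share was 18.9% among the 1583 whose 3′ UTR lay within 20% of the length of that of Stmn2. The 3′ UTR of Nefl, at 1648 bases, held no match, against 22.2% of tested genes of like length, nor did that of Nefm, at 754 bases, against 11.1%. The hexamer GCACTT alone, which pairs with all 7 miRNAs shown, was held by 2 of the 10 genes, Stmn2 and Ina, and by 32.2% of the tested genes. The longer matches particular to AAGUGCC and AAGUGCA were not searched. A match or its absence in these letters says nothing of binding.

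Expression was measured by 3′ end sequencing of poly(A) RNA (QuantSeq), and levels are given as CPM, read counts scaled to a common library size after correction by the trimmed mean of M-values. Total counts ran from 2131156 to 4745083 per library, so that 3 counts, the floor used here, correspond to 0.669 to 1.44 CPM. The targeted genes followed their labels: Dgcr8 was at 9.16 to 15.5 CPM in the DGCR8 KO libraries and 50.4 to 65.8 CPM in WT, and Ddx6 was at 25.8 to 149 CPM in the DDX6 KO libraries and 505 to 586 CPM in WT. The 6 pluripotency markers were present in every group, with a summed level of 2564 to 2769 CPM in WT, 2457 to 2591 CPM in DGCR8 KO and 3009 to 3167 CPM in DDX6 KO. Of 14 markers of neural progenitors and neurons, Neurog2 and Zic1 never exceeded 3 counts in a library, and the summed level of the list was 70.1 to 81.4 CPM in WT, 64.3 to 79.4 CPM in DGCR8 KO and 97.7 to 154 CPM in DDX6 KO. Sox1 alone made up 68.9 to 115 CPM of the sum in DDX6 KO and 26.4 to 40.9 CPM in WT. The median log2 fold change of the list's tested genes in DDX6 KO was -0.13. Of 7 fibroblast markers only Col1a1 passed the filter, Postn, Lum and Dcn never exceeded 3 counts, and the sum was at most 9.52 CPM. In bulk RNA, more cells of a type and more RNA per cell cannot be told apart.

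To place these genes among all others, each knockout was compared with WT across all tested genes with limma. A gene was called at an adjusted p-value under 0.05 and a log2 fold change beyond 1. The 10 genes were selected on measured values of these same libraries, the differences between genotypes, in which Nefl went in opposite directions, so their fold changes are given as a description and without p-values. In DGCR8 KO against WT, 3 of the 10 passed the call rule as higher (Nefl, Nefh and Stmn3), where 8.93% of all tested genes did, and 3 as lower (Nes, Tubb3 and Gap43), where 5.81% did. In DDX6 KO against WT none passed as higher, where 7.55% of all genes did, and 2 as lower (Nefl and Nefm), where 3.66% did. In the direct contrast of the knockouts, which uses the same libraries again, 4 passed as higher in DGCR8 KO (Nefl, Nefm, Stmn3 and Map2), beside 7.77% of all genes, and 2 as lower (Tubb3 and Gap43), beside 9.32%. Map2 needed its DGCR8 KO libraries to pass the filter on low values, so its place in the count of 4 supports nothing. The median log2 fold change of the 10 genes was 0.85 in DGCR8 KO and -0.29 in DDX6 KO, beside 0.0043 and 0.024 over all tested genes.

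**Figure D1:**
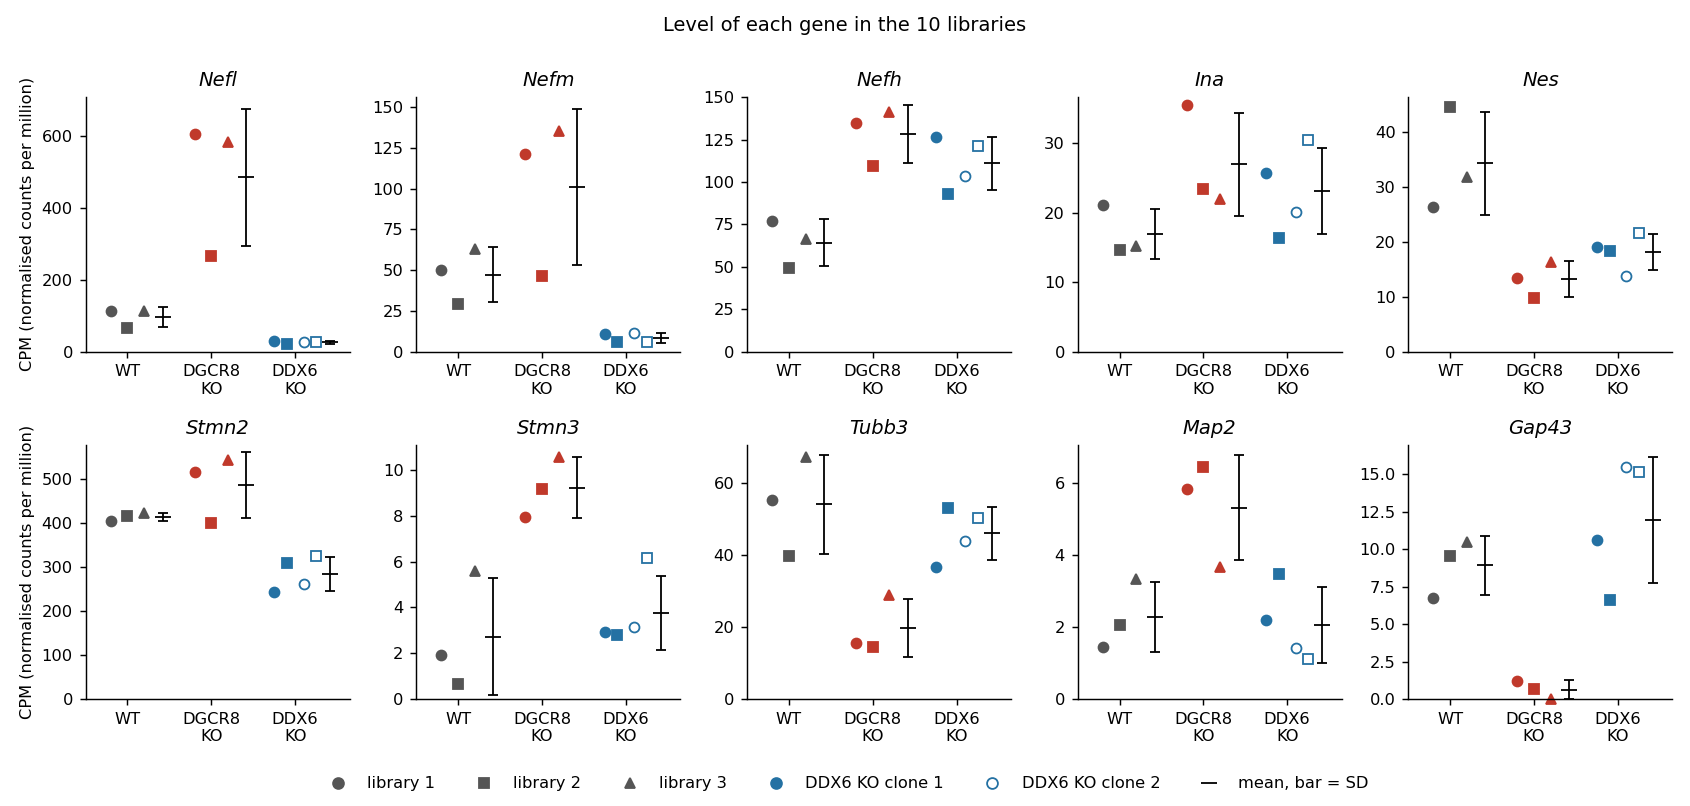
Level of each of the 10 genes in every library, in CPM on a linear axis that starts at 0 and has its own scale for each gene. Marker shape gives the library number in the title, open blue markers are DDX6 KO clone 2, and the black bar is the group mean with its SD (n = 3, 3 and 4). Nefl stood between 266 and 606 CPM in DGCR8 KO and between 20.2 and 28.6 CPM in DDX6 KO.

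Among the neurofilament chains, Nefl and Nefm were lower in DDX6 KO than in WT and Nefh was not. Nefl (ENSMUSG00000022055, chr14:68083863-68089095, plus strand, mm10), the light chain that starts filament assembly, was at 112, 64.7 and 112 CPM in WT libraries 1 to 3. It reached 606, 266 and 585 CPM in DGCR8 KO and stood at 28.6 and 20.2 CPM in DDX6 KO clone 1 and 27.8 and 25.5 CPM in clone 2. The 3 groups did not overlap, and the order was DGCR8 KO, WT, DDX6 KO. The means were 96.3 ± 27.3 CPM in WT (SD, n = 3), 486 ± 190 CPM in DGCR8 KO (SD, n = 3) and 25.5 ± 3.79 CPM in DDX6 KO (SD, n = 4). The log2 fold change was 2.28 (SE 0.26) in DGCR8 KO and -1.88 (SE 0.33) in DDX6 KO, and the knockouts were 4.16 apart (SE 0.30).

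Nefm (ENSMUSG00000022054, chr14:68082590-68124846, minus strand), the medium chain, is the neighbour of Nefl. Its annotated span contains the whole of Nefl on the opposite strand, with 1108 exon bases in common, and the counting kept the strands apart. Nefm was at 49.9, 28.96 and 62.9 CPM in WT, at 121, 46.5 and 136 CPM in DGCR8 KO, and at 10.99 and 5.91 CPM in clone 1 and 11.6 and 5.88 CPM in clone 2 of DDX6 KO. Every DDX6 KO library lay below every WT library, whereas library 2 of DGCR8 KO fell within the WT range. The log2 fold change was 0.98 (SE 0.32) in DGCR8 KO, just inside the limit of 1, and -2.50 (SE 0.49) in DDX6 KO. With the library number as a block (the paired fit), the DGCR8 KO value was 1.06 and passed the call rule, as it did at 1.08 with edgeR and 1.01 with limma-trend but not with DESeq2 (1.07).

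The 2 neighbours did not keep a constant proportion. The number of Nefl reads per Nefm read, which within a library depends on neither depth nor scaling, was 2.24, 2.23 and 1.78 in WT. It was 5, 5.72 and 4.31 in DGCR8 KO, and 2.60, 3.41, 2.39 and 4.33 in the DDX6 KO libraries, in the order clone 1 then clone 2. The ratio in every DGCR8 KO library lay above every WT library. In DDX6 KO, too, all 4 ratios were above those of WT, and library 2 of clone 2 reached the DGCR8 KO range on 91 Nefl and 21 Nefm reads.

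Nefh (ENSMUSG00000020396, chr11:4938754-4948064, minus strand), the heavy chain, was at 76.8, 49.4 and 66.4 CPM in WT. It was at 135, 109 and 141 CPM in DGCR8 KO and at 127, 93.2, 103 and 122 CPM in DDX6 KO. Both knockouts lay above every WT library and overlapped each other. The log2 fold change was 1.02 (SE 0.16) in DGCR8 KO and 0.82 (SE 0.16) in DDX6 KO, and the first stood so near the limit of 1 that it fell below it, at 0.85 to 0.99, in 7 of the alternatives.

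The remaining intermediate filament proteins of this group were Ina and Nes. Ina (ENSMUSG00000034336, chr19:47014698-47025327, plus strand), which co-assembles with the neurofilament chains, was at 21.1, 14.7 and 15.2 CPM in WT, 35.5, 23.4 and 21.99 CPM in DGCR8 KO, and 25.6, 16.4, 20.1 and 30.5 CPM in DDX6 KO. Its DGCR8 KO libraries lay above WT by a small margin and its DDX6 KO libraries overlapped WT, with log2 fold changes of 0.72 (SE 0.25) and 0.49 (SE 0.24), neither of them past the limit. Nes (ENSMUSG00000004891, chr3:87971093-87980451, plus strand) went the other way, from 26.4, 44.6 and 31.9 CPM in WT to 13.5, 9.84 and 16.3 CPM in DGCR8 KO and 19.1, 18.4, 13.7 and 21.6 CPM in DDX6 KO. Both knockouts were below every WT library. The log2 fold change of Nes was -1.39 (SE 0.25) in DGCR8 KO, which passed the call rule, and -0.90 (SE 0.21) in DDX6 KO, which did not reach the limit of fold.

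**Figure D2:**
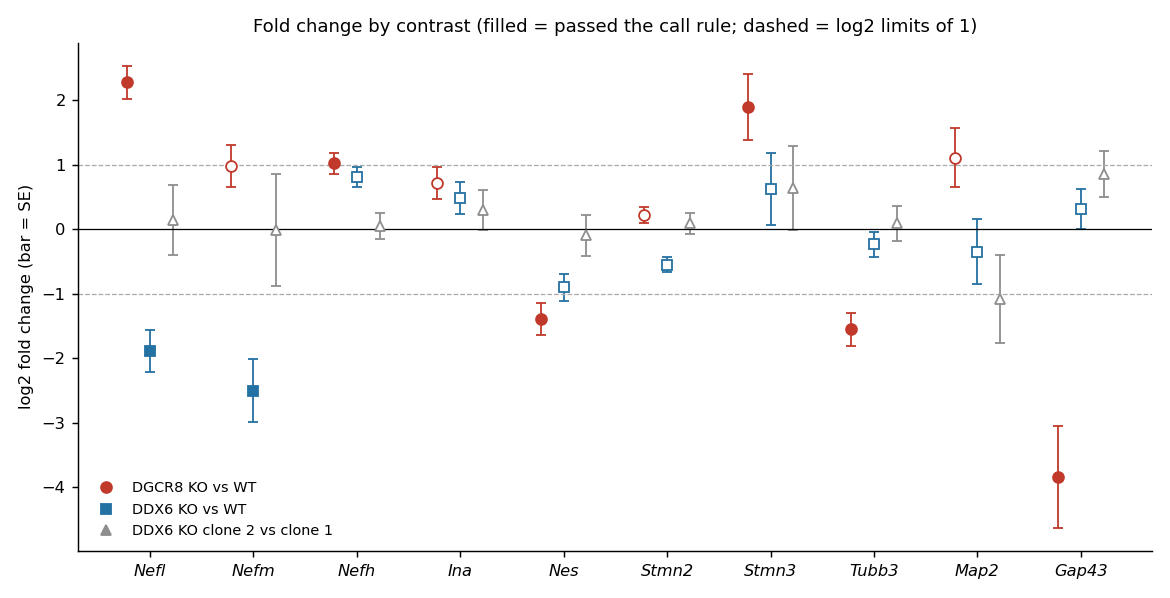
Log2 fold change of each gene in DGCR8 KO against WT (red circles), DDX6 KO against WT (blue squares) and DDX6 KO clone 2 against clone 1 (grey triangles), with the SE of the fit as bars. Filled symbols passed the call rule and dashed lines mark log2 values of 1 and -1, and Nefl stands at 2.28 and -1.88 while all 10 clone differences are open symbols.

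The stathmins bind free tubulin and promote the shrinking of microtubules. Stmn2 (ENSMUSG00000027500, chr3:8509360-8561606, plus strand), the neuronal stathmin whose 3′ UTR held the seed match, was at 404, 416 and 423 CPM in WT, at 516, 402 and 545 CPM in DGCR8 KO, and at 243, 309, 262 and 327 CPM in DDX6 KO. WT varied little, at 414 ± 9.20 CPM (SD, n = 3). DGCR8 KO overlapped it and every DDX6 KO library lay below it. The log2 fold changes of 0.22 (SE 0.12) and -0.55 (SE 0.12) were both within the limit. Stmn3 (ENSMUSG00000027581, chr2:181306459-181314500, minus strand) was counted far more sparsely, with 4, 2 and 25 reads in WT, 26, 27 and 26 in DGCR8 KO, and 8, 8, 9 and 22 in DDX6 KO. In CPM these were 1.92, 0.681 and 5.57 in WT, 7.96, 9.16 and 10.6 in DGCR8 KO, and 2.93, 2.78, 3.17 and 6.16 in DDX6 KO.

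DGCR8 KO thus lay above both other groups in Stmn3, with a log2 fold change of 1.89 (SE 0.52) against WT, while DDX6 KO overlapped WT (0.63, SE 0.55). The value depended on single WT libraries: without library 2 it was 1.17 and did not pass, and without library 3, which holds most of the WT reads, it was 2.85 and passed. Against DDX6 KO the difference of 1.27 (SE 0.40) did not pass in the paired fit (0.98), nor with clone 2 alone (0.94).

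Tubb3 (ENSMUSG00000062380, chr8:123411424-123422015, plus strand), the class III beta-tubulin used as a marker of young neurons, was lower in DGCR8 KO. It was at 55.2, 39.9 and 67.3 CPM in WT and 36.6, 53.2, 44.0 and 50.4 CPM in DDX6 KO, which overlapped, and at 15.6, 14.6 and 28.9 CPM in DGCR8 KO, below all of these. The log2 fold change was -1.55 (SE 0.25) in DGCR8 KO and -0.23 (SE 0.19) in DDX6 KO. Tubb3 is the only gene of the 10 on chromosome 8, whose genes as a whole were lower in the DGCR8 KO line. The median over 644 tested genes of chromosome 8, as log2 CPM minus the WT mean, was -0.38, -0.51 and -0.42 in the DGCR8 KO libraries and between -0.052 and 0.012 in the other 7. The same quantity for Tubb3 was -1.72, -1.81 and -0.86. Subtracting the chromosome's median left -1.34, -1.31 and -0.44, a mean of -1.03 ± 0.51 (SD, n = 3). Set against the same subtraction in WT (0.062, -0.41 and 0.33), DGCR8 KO library 3 was barely outside, and clone 1 library 1 of DDX6 KO, at -0.47, was lower than it. How much of the Tubb3 difference goes with the chromosome was not tested.

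**Figure D3:**
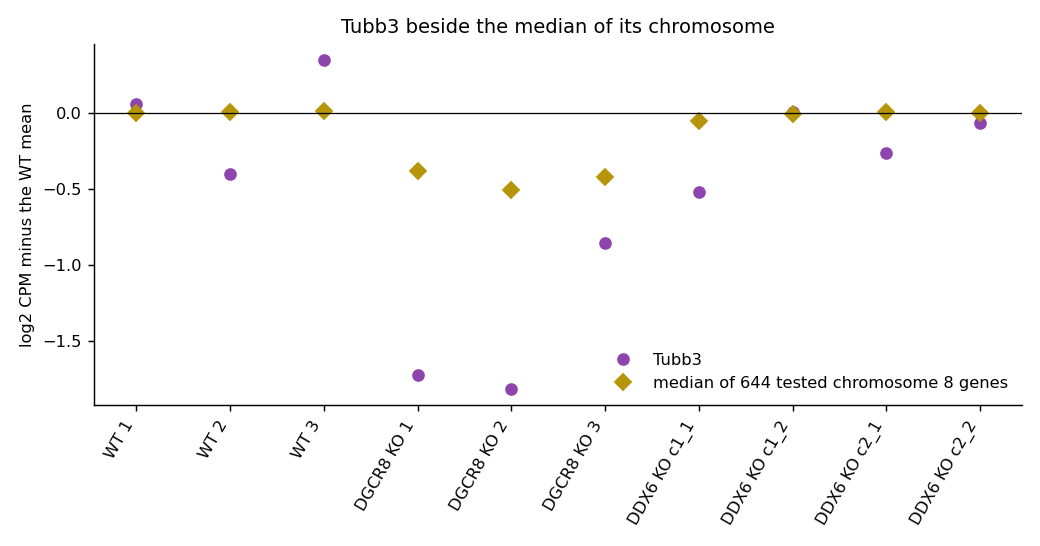
Tubb3 (purple circles) and the median of the 644 tested genes of chromosome 8 (yellow diamonds) in each library, as log2 CPM minus the WT mean, with DDX6 KO libraries named by clone and number. The chromosome's median was -0.38 to -0.51 in the 3 DGCR8 KO libraries, and Tubb3 lay below it in each of them.

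Map2 and Gap43 were near the detection floor in part of the libraries. Map2 (ENSMUSG00000015222, chr1:66175313-66442583, plus strand), the microtubule-associated protein of dendrites, had 3, 6 and 15 reads in WT, 19, 19 and 9 in DGCR8 KO, and 6, 10, 4 and 4 in DDX6 KO. It reached 3 CPM in 5 libraries, of which 3 are those of DGCR8 KO, and the DGCR8 KO libraries alone would have passed it through the filter. Its level was 1.44, 2.04 and 3.34 CPM in WT, 5.82, 6.45 and 3.67 CPM in DGCR8 KO, and 2.20, 3.48, 1.41 and 1.12 CPM in DDX6 KO. DGCR8 KO lay just above the other groups, and the log2 fold change against WT of 1.11 (SE 0.46) was not called. The difference of 1.45 (SE 0.44) from DDX6 KO was called, but not with clone 1 alone (0.86) or without library 2 of clone 2 (1.18).

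Gap43 (ENSMUSG00000047261, chr16:42248442-42340651, minus strand) showed the widest difference of the 10 on the log2 scale in DGCR8 KO. It had 14, 28 and 47 reads in WT, 4, 2 and 0 in DGCR8 KO, and 29, 19, 44 and 54 in DDX6 KO. These correspond to 6.72, 9.54 and 10.5 CPM in WT, to 1.23, 0.679 and 0 CPM in DGCR8 KO, and to 10.6, 6.61, 15.5 and 15.1 CPM in DDX6 KO. The DGCR8 KO libraries fell below all others, and 2 of the 3 were at or under the floor of 3 counts. The fitted log2 fold change of -3.83 (SE 0.79) therefore depends on the small count added before taking logs, and 6 reads in all stand behind the DGCR8 KO side. DDX6 KO overlapped WT (0.32, SE 0.31).

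Whether the 2 DDX6 KO clones differed is a question that the choice of genes did not use. None of the 10 genes was called between clone 2 and clone 1, where 0.0428% of all tested genes were. The adjusted p-value was 0.9997 for each of the 10 by limma, and edgeR and DESeq2 called none of them either. Only Gap43 had an unadjusted p-value under 0.05, at 10.6 and 6.61 CPM in clone 1 and 15.5 and 15.1 CPM in clone 2, a log2 difference of 0.86 (SE 0.35). With 2 libraries a clone the precision was limited: the difference was 0.15 (SE 0.54) for Nefl, -0.0078 (SE 0.87) for Nefm and 0.097 (SE 0.16) for Stmn2. Ddx6 itself was at 149 and 135 CPM in clone 1 and 39.1 and 25.8 CPM in clone 2, beside means of 24.4 and 26.6 CPM of Nefl in clones 1 and 2 and 8.45 and 8.74 CPM of Nefm.

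The libraries numbered 2 stood apart for Nefl and Nefm, which was noticed in the values, so what follows for these 2 genes is a description and no test. In a fit with the number as a term beside the genotype, 3.05% of all tested genes passed an adjusted p-value of 0.05, these 2 among them. Nefl was lower in libraries numbered 2 than in those numbered 1 by a log2 difference of -0.87 (SE 0.13), and Nefm by -1.12 (SE 0.16). Pair by pair, the difference for Nefl was -0.78 in WT, -1.19 in DGCR8 KO, -0.49 in clone 1 and -0.12 in clone 2, and for Nefm -0.77, -1.37, -0.83 and -0.91. For the other 8 genes the term did not pass, the lowest adjusted p-value being 0.0859, for Tubb3. Spike-in reads also moved with the number: their share of the counted reads was 1.89% to 2.36% in the 4 libraries numbered 2 and 1.10% to 1.79% in the other 6. Without the libraries numbered 2, the log2 fold changes were 2.40 and -1.97 for Nefl and 1.137 and -2.31 for Nefm, in DGCR8 KO and DDX6 KO respectively, so both genes kept their direction and Nefm then passed the call rule in DGCR8 KO, while Nefh (0.96) and Stmn3 (1.16) no longer did. In all, 2 of the 10 genes were then called higher and 3 lower in DGCR8 KO, beside 8.34% and 5.12% of the 11065 genes tested, and 2 lower in DDX6 KO, beside 3.64%. What the number stands for is not given in the labels.

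**Figure D4:**
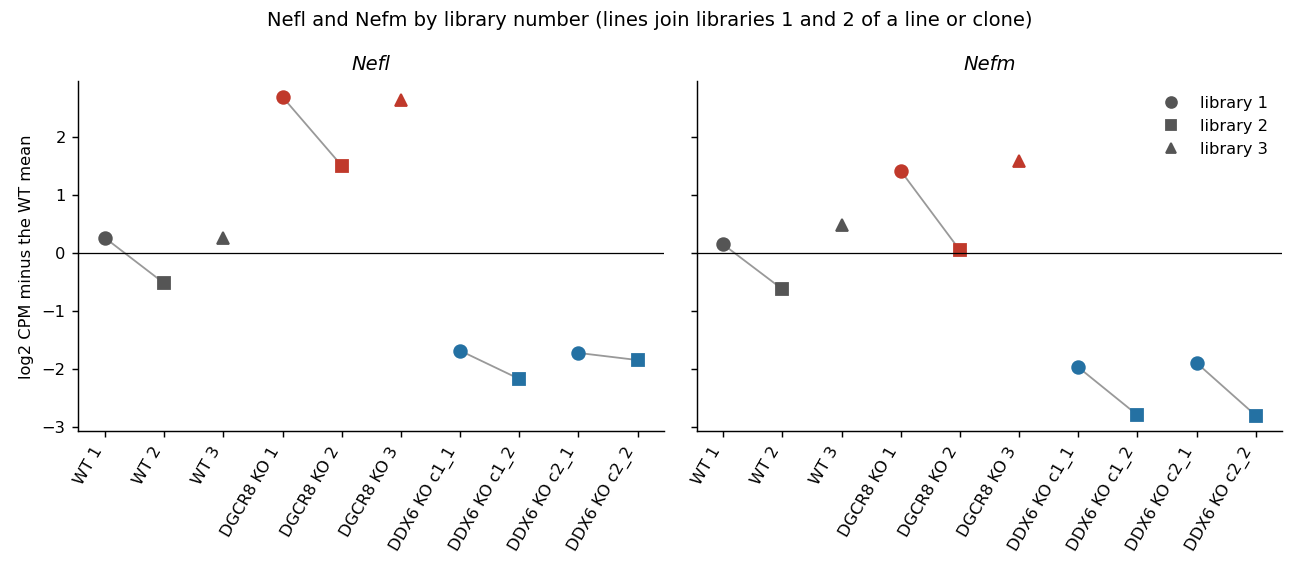
Nefl and Nefm in each library as log2 CPM minus the WT mean, with marker shape giving the library number, colour giving the group (grey WT, red DGCR8 KO, blue DDX6 KO) and grey lines joining libraries 1 and 2 of each line or clone. Library 2 lies below library 1 on every line, with log2 differences of -0.12 to -1.37.

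The genes whose pattern was most like that of Nefl were sought among the 8632 tested genes that averaged 10 CPM or more, by the root mean square difference of log2 CPM, each taken relative to its WT mean, over the 10 libraries. The closest 5 were Myo1a, a myosin of microvilli (0.53 log2 units), Tbc1d9 (0.56), the lipase Liph (0.61), the transcription factor Sp5 (0.62) and the membrane protease Adam19 (0.63). Adam19, for example, was at 50.9 ± 6.91 CPM in WT (SD, n = 3), 208 ± 5.04 CPM in DGCR8 KO (SD, n = 3) and 20.9 ± 4.92 CPM in DDX6 KO (SD, n = 4). Nefm came 12th by this measure, at 0.80, and was the closest of the 10 genes to Nefl. The other closest pairs among the 10 were Nefh with Ina (0.39), Nes with Tubb3 (0.57) and Stmn2 with Map2 (0.69), while Stmn3 was closest to Nefh (0.68) and the nearest to Gap43 was Tubb3 (1.15).

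The related genes of the same structures were described from lists that do not include the 10, and each list's counts stand beside shares of all tested genes of 8.93% called higher and 5.81% lower in DGCR8 KO, and 7.55% and 3.66% in DDX6 KO. The lists, too, were chosen with earlier results of these data known. Here and in the paragraphs on the other lists, calls and adjusted p-values (limma) are therefore a description and no independent support. Of 12 other intermediate filament genes, 9 were tested. In DGCR8 KO, Vim, the vimentin filament of mesenchymal and many cultured cells, rose from 114 ± 36.5 to 392.1 ± 49.5 CPM (log2 fold change 1.78, SE 0.17, adjusted p = 3.39e-07) and the keratin Krt8 rose by 1.43 (SE 0.43, adjusted p = 0.0149). The muscle filament desmin (Des, -2.51, SE 0.52, adjusted p = 9.68e-04) and Sync (-1.97, SE 0.43, adjusted p = 0.00146) fell. Both were near the floor in DGCR8 KO. Des had 4, 5 and 9 reads there against 29, 45 and 39 in WT, and Sync had 6, 7 and 3 against 14, 18 and 41. Synm also passed as lower, on 1, 3 and 1 reads against 23, 43 and 35 in WT, so that its DGCR8 KO libraries were all within the floor. In DDX6 KO, Krt8 (1.94, SE 0.40, adjusted p = 0.00111), its partner Krt18 (1.29, SE 0.35, adjusted p = 0.00756) and Des (1.29, SE 0.25, adjusted p = 7.09e-04) rose and none passed as lower. The median log2 fold change of the 9 was -0.13 in DGCR8 KO and -0.31 in DDX6 KO. The nuclear lamins Lmna, Lmnb1 and Lmnb2 had log2 fold changes from -0.40 (Lmnb1 in DDX6 KO) to 0.25 (Lmna in DDX6 KO).

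Of 13 other stathmins and tubulins, 11 were tested, of which 1 passed as higher and 1 as lower in DGCR8 KO and 1 as higher in DDX6 KO. Tubb2a, a beta-tubulin, rose in DGCR8 KO (87.0 ± 9.36 to 180 ± 18.4 CPM, log2 fold change 1.06, SE 0.15, adjusted p = 2.39e-05) and in DDX6 KO (260 ± 44.6 CPM, 1.57, SE 0.14, adjusted p = 2.32e-07). The alpha-tubulin Tuba1c fell in DGCR8 KO (-1.03, SE 0.12, adjusted p = 2.53e-06). The medians were -0.020 and -0.29. Stmn1, the stathmin of proliferating cells, was at 11.4 ± 3.33 CPM in WT, 13.95 ± 2.58 CPM in DGCR8 KO and 8.11 ± 2.90 CPM in DDX6 KO and did not pass the test against WT in either.

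Of 16 other microtubule-associated proteins, 12 were tested, 4 passed as higher and 1 as lower in DGCR8 KO, and 2 passed in each direction in DDX6 KO. Dpysl3, a collapsin response mediator protein that binds tubulin in growing axons, rose from 55.8 ± 9.49 CPM in WT to 350 ± 74.6 CPM in DGCR8 KO (log2 fold change 2.67, SE 0.16, adjusted p = 1.30e-09) and to 149 ± 15.98 CPM in DDX6 KO (1.45, SE 0.16, adjusted p = 3.21e-06). Map1b, the microtubule-associated protein of growing axons, rose by 2.20 (SE 0.14, adjusted p = 1.85e-09) and 1.26 (SE 0.14, adjusted p = 2.51e-06). Mapre2 (1.143) and Map6 (1.05) passed as higher in DGCR8 KO. Map1a, the form of mature neurons, fell in DGCR8 KO (-1.80, SE 0.39, adjusted p = 0.00148) and, next to the limit, in DDX6 KO (-1.01, SE 0.30, adjusted p = 0.0140). In DDX6 KO, Map1a was at 5.13 and 4.57 CPM in libraries numbered 1 and at 13.6 and 11.2 CPM in those numbered 2. WT lay at 14.3 to 18.1 CPM. Dpysl5 fell in DDX6 KO (-1.54, SE 0.38, adjusted p = 0.00440), on 9, 6, 3 and 8 reads against 13, 18 and 28 in WT. The list's median was 0.42 in DGCR8 KO and 0.011 in DDX6 KO. Doublecortin (Dcx), a marker of young neurons, never exceeded 3 counts.

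Of 9 genes of the growth cone and axon membrane besides Gap43, 5 were tested. The adhesion molecule Ncam1 rose in DGCR8 KO from 59.4 ± 10.8 to 217 ± 9.81 CPM (log2 fold change 1.85, SE 0.14, adjusted p = 2.12e-08), whereas Marcks, which like Gap43 is a membrane-bound substrate of protein kinase C, fell (-1.16, SE 0.20, adjusted p = 1.50e-04). None was called in DDX6 KO. The medians were 0.23 and 0.25. The synaptic gene Snap25 had no read in any of the 10 libraries, which allows up to 3 counts, or 0.669 to 1.44 CPM, a library.

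REST itself was at 1044 ± 147 CPM in WT, 1341 ± 152 CPM in DGCR8 KO and 1106 ± 203 CPM in DDX6 KO, and was called in neither (adjusted p = 0.0526 and 0.725). All 9 genes of its complex were tested. Only the corepressor Rcor3 passed the call rule, as higher in DGCR8 KO (14.7 ± 2.39 to 39.7 ± 5.37 CPM, log2 fold change 1.38, SE 0.23, adjusted p = 1.22e-04), and none did in DDX6 KO. The medians were 0.082 and 0.017.

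Of the 14 neural markers, 8 were tested, and these moved in both directions. In DGCR8 KO the synaptic vesicle gene Syn1 passed as higher (log2 fold change 1.34, SE 0.44, adjusted p = 0.0210). It was sparsely counted, with 33, 16 and 15 reads in DGCR8 KO and 9, 4 and 15 in WT. Pax6, a regulator of neural progenitors, had 17, 11 and 14 reads in DGCR8 KO and 3, 1 and 3 in WT. It reached the filter only through the DGCR8 KO libraries, so that its call as higher supports nothing. The neuronal RNA-binding gene Elavl4 passed as lower, on 3, 4 and 0 reads against 5, 20 and 21 in WT. Elavl4 reached 3 CPM in only 3 libraries, none of them DGCR8 KO, so that its call as lower supports nothing either. In DDX6 KO the early neural genes Sox1 (34.3 ± 7.33 to 91.5 ± 25.1 CPM, 1.37, SE 0.20, adjusted p = 5.61e-05) and Sox3 (1.31, SE 0.36, adjusted p = 0.00946) rose and Olig2 fell (-1.60, SE 0.35, adjusted p = 0.00200). The SD of Sox1 pools the clones, at 70.7 and 68.9 CPM in clone 1 and 115 and 111 CPM in clone 2. That log2 difference of 0.70 (SE 0.16) was not called (adjusted p = 0.675 by limma). The list's median was -0.21 in DGCR8 KO and -0.13 in DDX6 KO. The part of any neural cells in the levels of the 10 cytoskeletal genes was not tested.

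**Figure D5:**
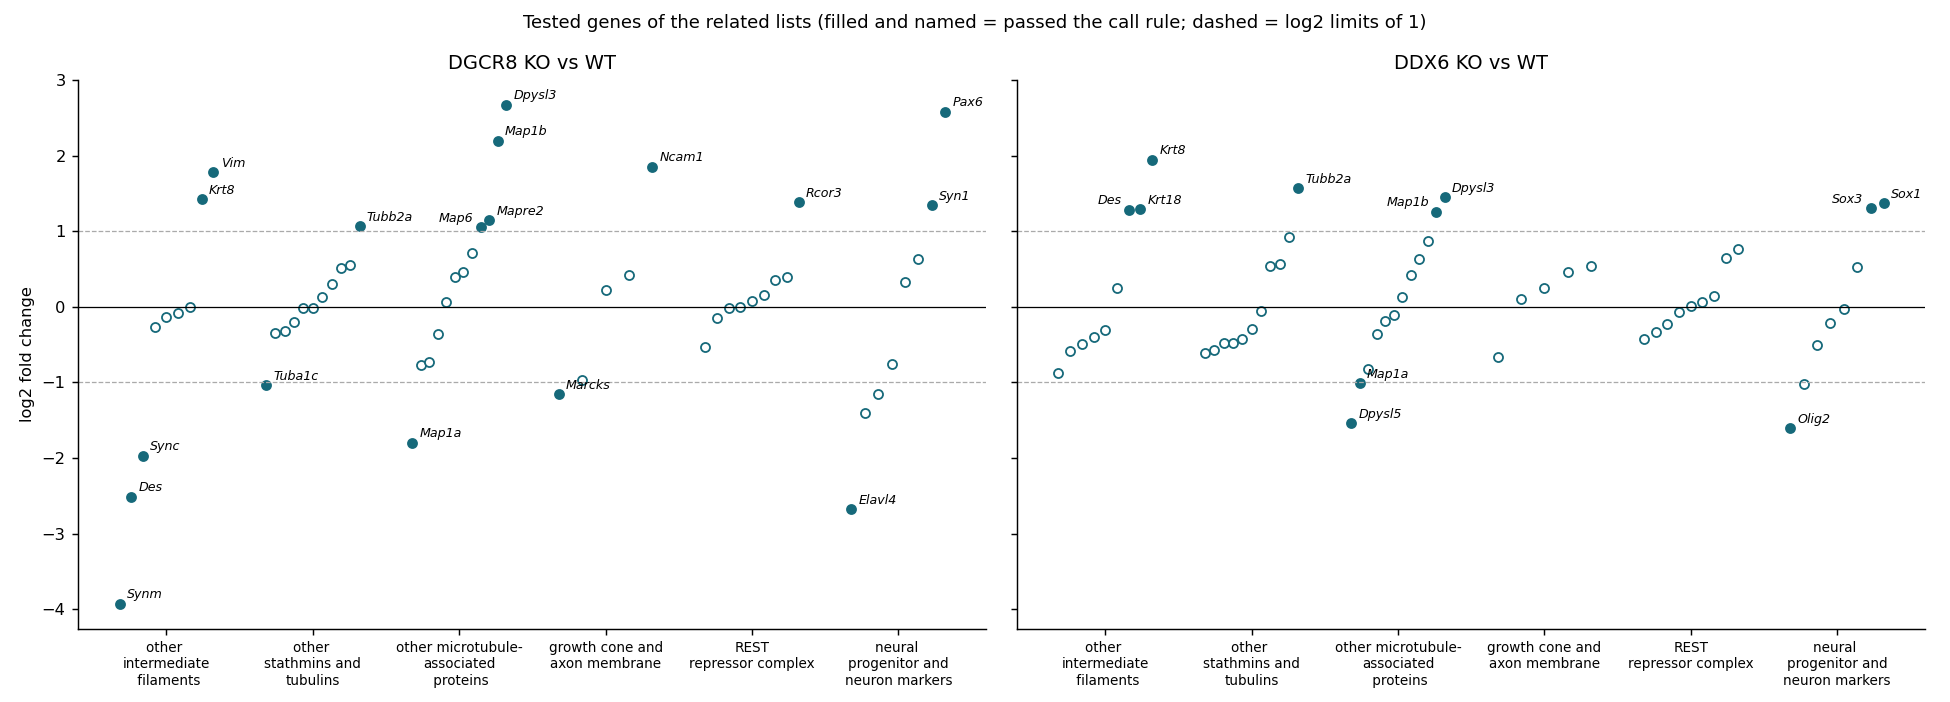
Log2 fold change of every tested gene of the 6 related lists in DGCR8 KO (left) and DDX6 KO (right) against WT, sorted within each list, with filled and named symbols for genes that passed the call rule and dashed lines at 1 and -1. Dpysl3 and Map1b stand above 1 in both panels, and no gene of the growth cone list is filled on the right.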

How the data were processed

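The values are the deposited raw counts per gene and library. The authors trimmed reads with cutadapt 1.14, aligned them to mm10 with STAR 2.5.3a, and counted unique, sense-strand exon reads in featureCounts 1.5.3. The annotation was from Gencode, less ribosomal RNA genes and plus 92 ERCC spike-ins. No molecular identifiers are stated, so floors cover counting error only. Spike-ins were set apart. Symbols came from a GRCm38 annotation by identifier (51274 of 51467 genes). The 10 members and all lists were chosen with earlier results of these data known.

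Libraries were grouped by title. Testing was limited to the 11683 genes that reached 3 CPM in 3 or more libraries, and used voom in limma 3.58.1, with TMM factors from edgeR 4.0.16 in R 4.3.3. All 10 libraries entered 1 model of the genotype, two-sided, with Benjamini-Hochberg adjustment over all tested genes, and a second model gave each clone its own group. DESeq2 1.42.0 and edgeR's quasi-likelihood test were alternatives. The pipeline was tested on simulated data. The numbers in the titles went with a weak likeness between libraries. Deviations from the group means correlated at 0.145, 0.268 and 0.285 between same-numbered WT and DGCR8 KO libraries (at most -0.0196 between others). The difference between a clone's libraries correlated at 0.199 between the clones. Deviations within a group cancel out, so positive values for same-numbered libraries push the others down. Whether the numbers mark a pairing is not given in the labels.

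Named were the 10 members, the targeted genes, Rest, and of each list up to 4 called genes per contrast with the largest difference. The lamins, Stmn1, Dcx, Snap25 and marker genes at the floor were added after their values were seen. For 3′ UTRs the principal coding transcript with the longest 3′ UTR (GENCODE M21) was used.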

Additional observations from a re-analysis of the deposited data

Results flagged for a closer look

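Nefl lay above the WT mean in every DGCR8 KO library and below it in every DDX6 KO library, the knockouts being 4.16 apart on the log2 scale. The direct contrast passed the call rule, but Nefl was chosen with this pattern known, so it is a description and no p-value is given. For Stmn3, 1 of the 4 DDX6 KO libraries stood apart: library 2 of clone 2, at 6.16 CPM on 22 reads, was separated from the others (2.78 to 3.17 CPM) by 0.886 of the whole range. Of 10 genes examined in this way 1 was marked, and chance marks about 1 in 20.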

How the results depend on the processing

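The counts of members called were within 1.5 times of those reported in 87 of 88 recomputations. That range takes in 4 members against 6. It also includes recomputations that left out a library of the group not compared, which could hardly move the count. With adjusted p alone and no limit of fold, 5 members rather than 2 were called in DDX6 KO against WT (1 higher and 4 lower). Of the 11683 tested genes, 4032 rather than 1310 were then called in that contrast. Of 307 recomputed fold changes of called members none changed direction, and 15 no longer passed. The 15 were Nefh in DGCR8 KO in 7 (0.85 without WT library 2 to 0.99), and Stmn3, Map2 and Tubb3 in the others. Part of the 307 could not test direction. Dropping the limit of fold leaves fold changes as they were. Leaving out a DDX6 KO library left Nefl in DGCR8 KO against WT at 2.27 to 2.28, beside 2.28. The members were also chosen on these libraries, so their kept direction is no independent support. Without the libraries numbered 2, an alternative chosen after seeing the data, Stmn3 stood at 1.16 in DGCR8 KO against WT, and Tubb3 at -0.996 and Map2 at 1.32 against DDX6 KO. Leaving out WT library 2 left 1 member called higher in DGCR8 KO rather than 3. In either direction 4 members rather than 6 were then called, beside 1641 rather than 1722 of all genes. The paired fit (replicate block) gave 7 members called in DGCR8 KO, where 1749 of the 11683 tested genes were called. It changed no member's call other than Nefm and Stmn3. Scaling by total counts moved the median log2 fold change of all genes from 0.024 to 0.15 in DDX6 KO against WT. Between the knockouts it moved from 0.0019 to -0.13. Over all genes, calls in DGCR8 KO, DDX6 KO and between the knockouts went from 1722, 1310 and 1997 to 4245, 4032 and 5144 without the limit of fold, and from 1310 to 822 and 1997 to 1316 with a filter at 10 CPM, which leaves fewer genes to test. Between the clones 5 genes were called, and 3 without a library of either clone in 3 of 4 cases. The causes were not tested. Levels below 0.669 to 1.44 CPM were not measurable at this depth.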
